A study of Arabidopsis thaliana with 21 samples.

Results

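The WRKY transcription factors were followed through germination and seedling establishment in Arabidopsis thaliana. The family was taken as 55 named loci, and the probe sets of each locus were averaged, so that 69 probe sets gave values for all 55 of the 27789 genes measured. The loci were listed by gene family, though with earlier results of these data known. All counts for the family and its classes refer to these 55 loci only. Each gene of the family met in the text is called by its family number, and RefSeq lists WRKY1 as ZAP1 and WRKY44 as TTG2.

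All plants were Col-0, the labels name no mutation or transgene, and each stage was a group of 3 arrays. The 7 stages were mature dry seed (DS), 6 h of imbibition (6H), testa rupture (TR), radicle protrusion (RP), first root hairs (RH), green cotyledons (GC) and opened cotyledons (OC). Per the labels, each replicate was a pool of seed from several plants, 3000 seeds were picked per stage under a stereomicroscope, and seed received 72 h of cold at 4 °C in water before it was moved to constant light at 22 °C. The sources used here do not say whether the 6 h follow that cold period, so imbibition and cold cannot be told apart in the first step.

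WRKY proteins are plant transcription factors that bind W-box elements in promoters through a domain with a conserved WRKY peptide and a zinc finger. They are sorted by the number of such domains and by the type of zinc finger into classes I, IIa to IIe and III. Many of them act in immunity, in salicylic acid and jasmonate signalling and in leaf senescence. In seeds, members of the family act in abscisic acid signalling during germination, in the seed coat and in control of seed size, and in roots in the response to phosphate supply.

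The deposited values are log2 signals after RMA, on which a difference of 1 is 2-fold. A gene was counted as higher or lower at the later stage when limma's moderated test, run over all 27789 genes, gave a Benjamini-Hochberg adjusted p under 0.05 and the log2 change was at least 1. Where groups of arrays are said not to overlap, this describes the arrays that also gave the count and is no separate support for it. A mean within the lowest 30% of all values, at or below 3.47, is described as near the signal floor, where changes are compressed. Levels of different genes come from different probes and are not set against each other. RNA came from whole seeds and seedlings, so fewer cells of a type and less RNA per cell cannot be told apart for any of the changes given here.

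Markers of dry seed, root hair and green cotyledon changed in the order of the stage labels up to RH. The mean of 8 dry seed reserve genes was 11.58 to 11.67 on the DS arrays, 10.56 to 10.97 at 6H, 6.04 to 6.50 at TR and 4.27 to 4.66 at RH. It was then 4.48 to 5.75 at GC and 4.59 to 5.58 at OC. For 6 root hair genes the mean was 7.49 to 7.68 at RH and 3.96 to 4.24 at RP, and it stayed at 7.66 to 7.81 at GC and 6.87 to 7.23 at OC. Photosynthesis genes of the green cotyledon, 6 in all, averaged 9.22 to 9.41 at OC and 4.58 to 5.16 at DS. The mean of 7 endosperm genes was 6.28 to 6.43 at 6H, where 3 of them were near the floor, and 5.42 to 5.53 at DS, where 2 were. Of these 7, XTH19 and MAN7 rose at 6H by 5.41 ± 0.20 and 3.0 ± 0.19, while the median change of the list was -0.40. The mean of 6 seed coat genes lay between 3.52 and 4.44 on all arrays, with 2 to 4 of them near the floor at each stage. Within it MUM2 rose by 2.98 ± 0.13 at TR against 6H, and MUM2 and MUM4 were higher at OC than at DS by 3.47 ± 0.13 and 1.55 ± 0.13. The other 4 were not counted over that span, and the median change of the list was -0.06. Of these 4, BAN, TT12 and TT16 had lower means at OC than at DS, and TT10 a higher one. The part of cell type and organ in the WRKY changes was not tested. Replicates of a stage correlated at 0.981 or more, and DS replicate 2 was the least like its stage.

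Across the 7 stages, 46 of 55 WRKY genes changed, meaning an adjusted p under 0.05 in limma's F test and stage means that differed by at least 1. The same held for 66.4% of all genes. Step by step, 14 members fell on imbibition, 21 rose at testa rupture, and between 2 and 8 rose at each later step, while 1 fell at TR and 1 at OC. Of the 46, 27 had their lowest mean at 6H (58.7%, against 20.1% of all genes that changed), and 20 had their highest at OC (43.5%, against 22.3%). A further 11 were highest at GC (23.9%, against 7.75%) and 10 at DS (21.7%, against 28.4%). Another 3 were highest at RH (6.52%, against 6.89%) and 1 at RP (2.17%, against 5.7%). At 6H 1 was highest (2.17%, against 20.6%), and at TR 0 were, against 8.38%. The number of members near the floor was 14 at DS, 24 at 6H, 17 at TR, 10 at RP, 9 at RH, 6 at GC and 5 at OC.

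**Figure D1:**
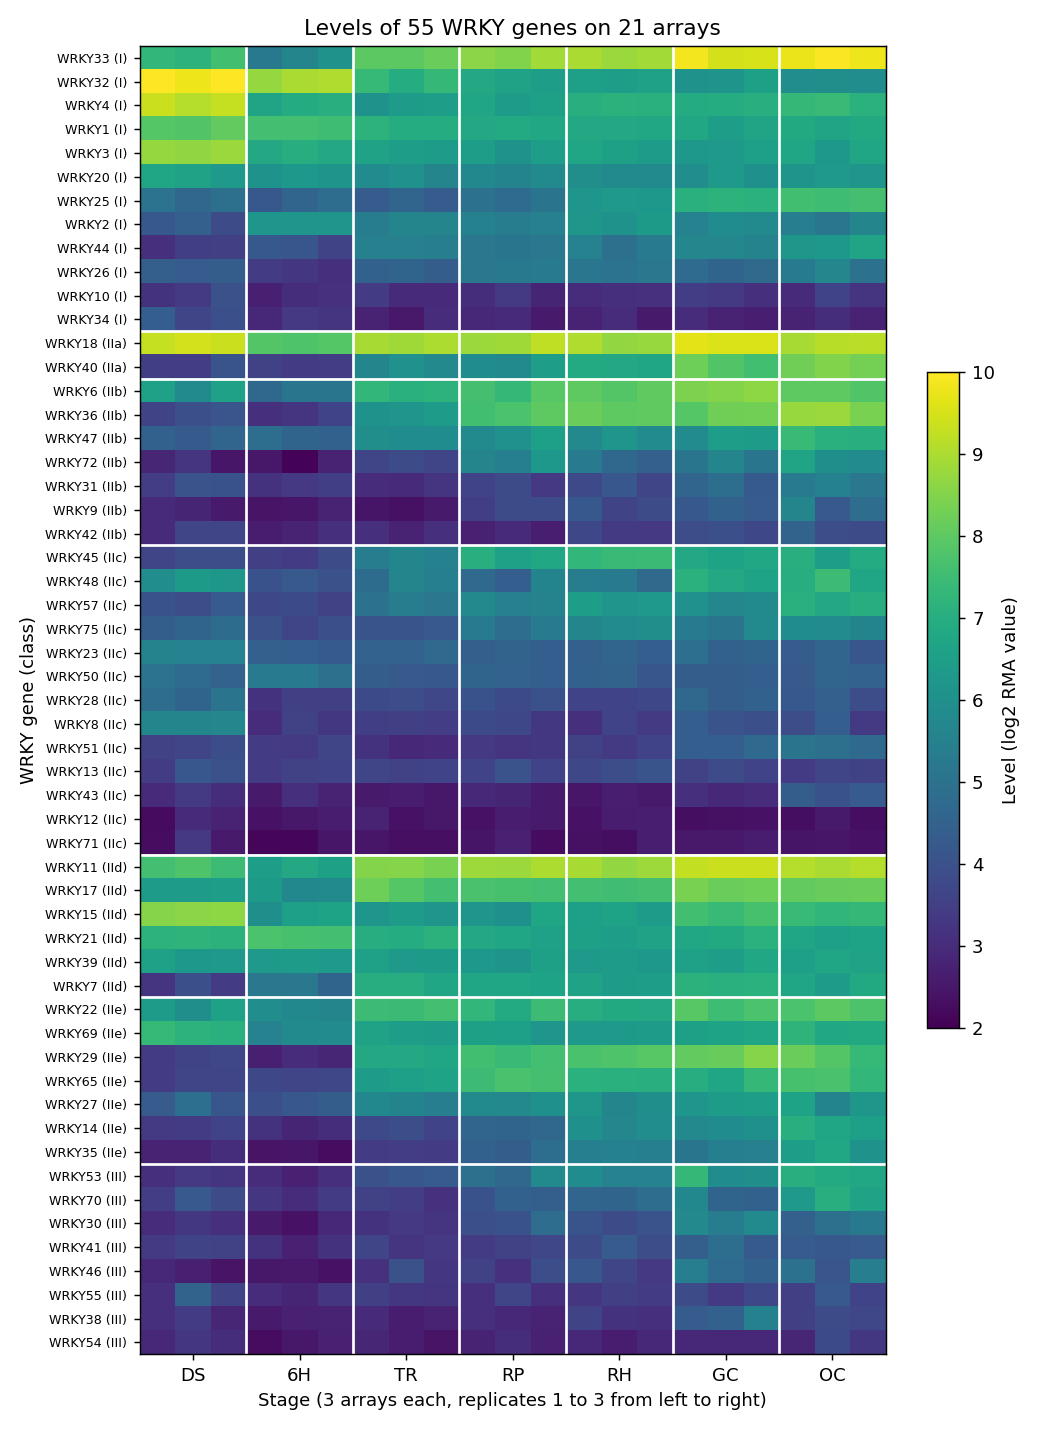
Colour shows the level (log2 RMA value, scale from 2 to 10) of the 55 WRKY genes on the 21 arrays, with stages in developmental order, 3 replicates per stage and genes grouped by class. Most genes darken from DS to 6H and brighten from TR on, while WRKY32, WRKY3 and WRKY4 of class I are brightest at DS.

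From dry seed to 6 h of imbibition, 14 of 55 members fell and 2 rose. Among all genes 10.7% fell and 14.6% rose, and among members the shares were 25.5% and 3.64%. The median change of the family was -0.49, against -0.23 for all genes. Scaling moved both medians, which were -0.30 and -0.03 after a further quantile normalization and -0.85 and -0.60 on median-centred arrays. Under these scalings 14 and 18 members fell, against 11.2% and 22.2% of all genes, and 3 and 2 rose, against 12.9% and 8.84%. The members that fell were WRKY3, WRKY4, WRKY6, WRKY8, WRKY11, WRKY15, WRKY18, WRKY23, WRKY26, WRKY28, WRKY32, WRKY33, WRKY48 and WRKY69.

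WRKY4 and its paralog WRKY3, class I factors known from resistance to necrotrophic fungi, were among those that fell the most. WRKY4 (AT1G13960) had 6.67, 6.92 and 7.01 at 6H and 9.36, 9.10 and 9.29 at DS, a change of -2.39 ± 0.13 (SE, limma adjusted p = 3.7e-12). WRKY3 (AT2G03340) had 6.82, 6.98 and 6.84 at 6H and 8.75, 8.67 and 8.78 at DS, a change of -1.85 ± 0.14 (limma adjusted p = 3.6e-10). For both genes every 6H array lay below every DS array, and neither came back to its dry seed level by OC. WRKY8 (AT5G46350), a class IIc factor of salt and defence responses, had 3.01, 3.54 and 3.31 at 6H and 5.67, 5.67 and 5.69 at DS. Its change was -2.39 ± 0.20 (limma adjusted p = 3.6e-09), and at 6H its mean of 3.29 was near the floor, where changes are compressed. WRKY28 (AT4G18170), the paralog of WRKY8 and a known activator of the salicylic acid synthesis gene ICS1, fell by 1.44 ± 0.15, and at 6H it too was near the floor, with a mean of 3.39.

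Of the other members, WRKY15 fell by 2.21 ± 0.16, WRKY48 by 2.1 ± 0.27 and WRKY69 by 1.47 ± 0.13. WRKY23 (AT2G47260), an auxin-responsive factor of embryo and root development, had 4.46, 4.38 and 4.26 at 6H and 5.57, 5.54 and 5.56 at DS. The change of WRKY23 was -1.19 ± 0.13 (limma adjusted p = 9.1e-08), its groups did not overlap, and it stayed between 4.14 and 4.93 on all later arrays. Calls for 2 of the 14 rested on single libraries. WRKY11 (-1.03 ± 0.11) dropped under the minimum change without DS replicate 2, without 6H replicate 1 or with array weights, with a range of -1.40 to -0.84 over all alternatives. WRKY32 (-1.02 ± 0.14) did so without DS replicate 1, DS replicate 3 or 6H replicate 1, with a range of -1.38 to -0.92.

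The 2 members that rose on imbibition were WRKY2 and WRKY7. WRKY2 (AT5G56270), a class I factor that acts in abscisic acid control of germination, had 6.22, 6.18 and 6.18 at 6H and 4.21, 4.45 and 3.87 at DS. Its change was 2.02 ± 0.15 (limma adjusted p = 3.3e-10), and all 6H arrays lay above all DS arrays. The stage mean of WRKY2 was 5.54 at TR, 5.46 at RP, 6.23 at RH, 5.75 at GC and 5.40 at OC, and no later step reached the minimum change. Its changes of -0.65 at TR, 0.77 at RH and -0.48 at GC had limma adjusted p = 0.00086, 0.00052 and 0.022. WRKY7 (AT4G24240), a calmodulin-binding class IId factor that limits basal resistance, had 5.21, 5.21 and 4.58 at 6H and 3.22, 3.97 and 3.41 at DS. WRKY7 changed by 1.46 ± 0.18 (limma adjusted p = 4.7e-07), again without overlap, and it rose once more by 1.90 ± 0.18 at TR.

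From 6 h of imbibition to testa rupture, 21 of 55 members rose and 1 fell. Among all genes 9.8% rose and 7.34% fell, and among members the shares were 38.2% and 1.82%. The median change of the family was 0.31, against 0.01 for all genes. In the same step the reserve genes fell by a median of 4.32, and 4 of 6 green cotyledon genes rose. Of the 21 members, 6 had fallen in the step before, namely WRKY6, WRKY11, WRKY18, WRKY26, WRKY33 and WRKY48, and 15 had not.

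**Figure D2:**
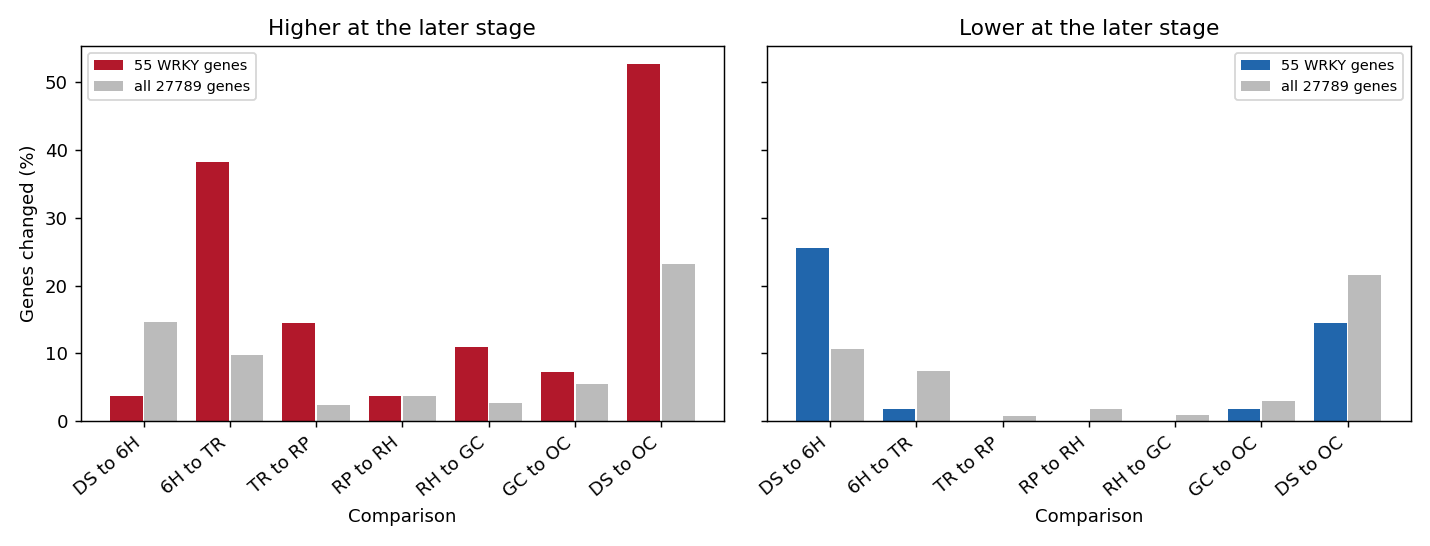
Bars give the share of genes (%) counted as higher (left) or lower (right) at the later stage in each comparison, for the 55 WRKY genes and for all 27789 genes. WRKY genes were lower at 6H in 25.5% of cases against 10.7% of all genes, and higher at TR in 38.2% against 9.8%.

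WRKY29 (AT4G23550) rose the most. It is a class IIe factor placed with WRKY22 below the flagellin receptor FLS2, and it had 6.84, 6.84 and 6.69 at TR and 2.69, 3.02 and 2.85 at 6H. Its change was 3.94 ± 0.17 (limma adjusted p = 2.9e-13), no TR array came near the 6H arrays, and the 6H mean of 2.85 was near the floor. Its partner WRKY22 rose by 1.74 ± 0.16. WRKY36 (AT1G69810), a class IIb factor known as a repressor of HY5 under UV-B light, had 6.11, 6.18 and 6.39 at TR and 3.10, 3.19 and 3.62 at 6H, a change of 2.92 ± 0.17 (limma adjusted p = 1.9e-11). The 6H mean of WRKY36, 3.30, was also near the floor. WRKY65 (AT1G29280), of class IIe, rose by 2.82 ± 0.14, with a mean of 6.52 at TR and 3.71 at 6H.

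WRKY33 and WRKY6 fell on imbibition and rose at testa rupture. WRKY33 (AT2G38470), the class I factor that drives camalexin synthesis and is a substrate of the kinases MPK3 and MPK6, had 7.31, 7.17 and 7.56 at DS, 5.24, 5.65 and 6.08 at 6H and 8.0, 7.98 and 8.17 at TR. It therefore fell by 1.69 ± 0.17 on imbibition and rose by 2.39 ± 0.17 at testa rupture (limma adjusted p = 3.8e-08 and 5.4e-10). WRKY33 went on to 9.76, 9.95 and 9.80 at OC, and the 3 groups DS, 6H and TR did not overlap. WRKY6 (AT1G62300), a class IIb factor of senescence and phosphate transport, had 6.56, 5.81 and 6.58 at DS, 4.66, 5.11 and 5.11 at 6H and 7.29, 7.06 and 7.16 at TR. Its change was -1.36 ± 0.18 on imbibition and 2.21 ± 0.18 at testa rupture (limma adjusted p = 1.9e-06 and 4e-09). The DS arrays of WRKY6 spread more than those of the later stages, with replicate 2 the lowest, yet they lay apart from both other groups.

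WRKY18 and WRKY40, the class IIa repressors of immunity that also act in abscisic acid signalling at germination, were set side by side. WRKY18 (AT4G31800) had 9.30, 9.46 and 9.35 at DS, 7.87, 7.78 and 7.88 at 6H and 8.95, 8.86 and 9.02 at TR. It fell by 1.52 ± 0.12 on imbibition and rose by 1.10 ± 0.12 at testa rupture (limma adjusted p = 8.1e-10 and 1.7e-07), and at OC its change against DS was -0.28 ± 0.12. WRKY40 (AT1G80840) had 3.5, 3.47 and 4.06 at DS, 3.57, 3.42 and 3.47 at 6H and 5.69, 6.05 and 5.77 at TR, and it lay close to the floor at both early stages. It rose by 2.35 ± 0.18 at TR (limma adjusted p = 2.2e-09) and had 8.28, 8.48 and 8.31 at OC, for a change against DS of 4.68 ± 0.18 (limma adjusted p = 7.6e-15). No test was made of the difference between these paralogs.

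WRKY11 and WRKY17, paired class IId repressors of basal resistance, rose together at testa rupture. WRKY11 (AT4G31550) had 8.53, 8.56 and 8.38 at TR and 6.45, 6.82 and 6.55 at 6H, and changed by 1.88 ± 0.11 (limma adjusted p = 5.7e-11). All later arrays of WRKY11 stayed between 8.71 and 9.37. WRKY17 rose by 1.93 ± 0.15, with means of 7.91 at TR and 5.98 at 6H. WRKY44 (AT2G37260, TTG2), which acts in trichomes, in seed coat mucilage and tannin and in seed size, had 3.08, 3.48 and 3.51 at DS, 4.21, 4.13 and 3.63 at 6H and 5.48, 5.47 and 5.41 at TR. Its rise to TR was 1.46 ± 0.16 (limma adjusted p = 3.1e-07), the groups did not overlap, and at OC it had 6.24, 6.26 and 6.66. WRKY53 (AT4G23810), a class III regulator of leaf senescence, rose by 1.21 ± 0.29 (limma adjusted p = 0.0015), with 3.98, 4.19 and 4.33 at TR and 3.0, 2.75 and 3.11 at 6H. The 6H mean of WRKY53, 2.95, was near the floor.

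The remaining rises in this step were 1.91 ± 0.15 for WRKY45, 1.47 ± 0.13 for WRKY57, 1.43 ± 0.22 for WRKY27, 1.29 ± 0.27 for WRKY72, 1.26 ± 0.18 for WRKY47, 1.23 ± 0.14 for WRKY26, 1.22 ± 0.27 for WRKY48 and 1.03 ± 0.16 for WRKY35. At 6H WRKY72, WRKY26 and WRKY35 were near the floor, with means of 2.45, 3.24 and 2.39. WRKY45 and WRKY57 are class IIc factors, one an activator of the phosphate transporter gene PHT1;1 and the other a factor of drought tolerance and senescence. WRKY26 and WRKY48 missed the minimum change after a further quantile normalization, at 0.96 and 0.95, and WRKY35 did so without 6H replicate 3 and with array weights, at 0.97 at the lowest.

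WRKY32 alone fell at testa rupture, and it fell over the whole series. This class I gene (AT4G30935) had 9.99, 9.79 and 10.01 at DS, 8.72, 8.98 and 9.03 at 6H, 7.35, 6.95 and 7.34 at TR, 6.84, 6.61 and 6.49 at RP, 6.53, 6.48 and 6.58 at RH, 6.11, 6.14 and 6.53 at GC and 5.92, 5.96 and 5.93 at OC. Its change was -1.70 ± 0.14 at TR against 6H and -3.99 ± 0.14 at OC against DS (limma adjusted p = 2.8e-09 and 7.9e-16). Each stage mean was below the one before, and up to RP the arrays of neighbouring stages did not overlap.

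**Figure D3:**
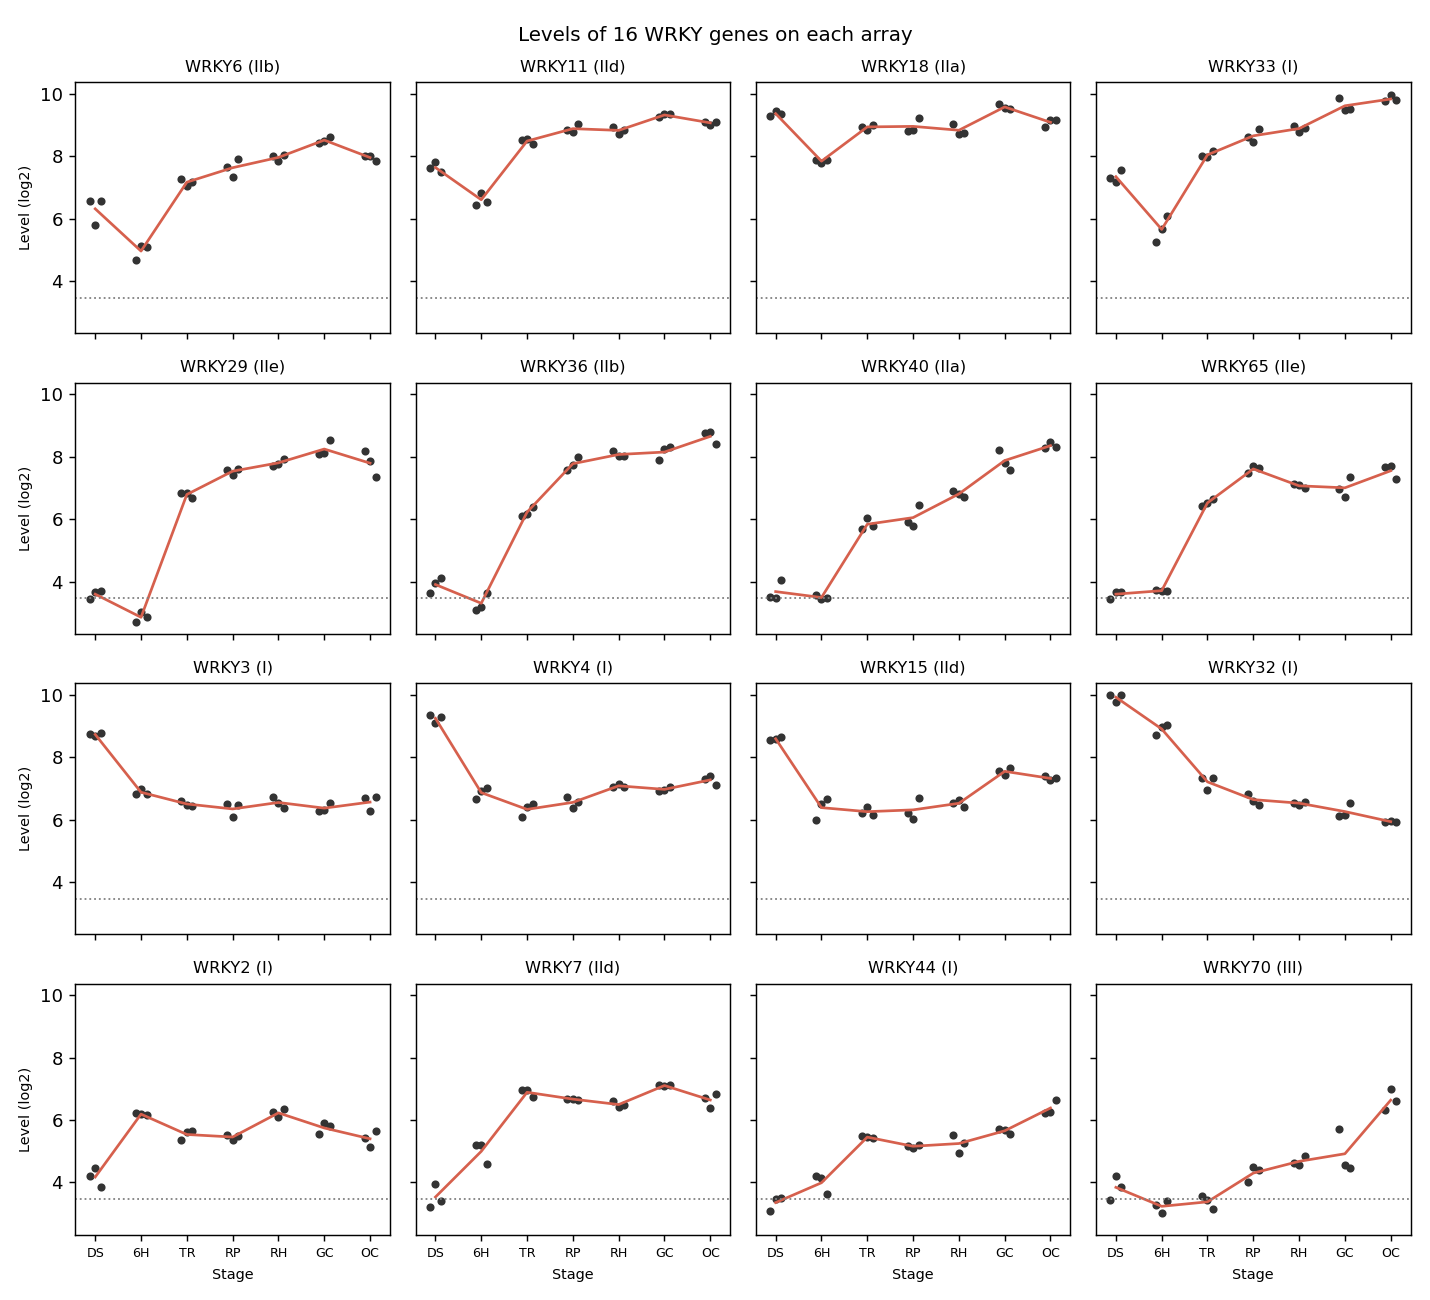
Points are the 3 arrays of each stage and lines join the stage means (log2) for 16 WRKY genes, with the signal floor of 3.47 dotted. The top row dips at 6H, the second row rises at TR from close to the floor, the third row is highest at DS, and the bottom row holds WRKY2 and WRKY7, which rose at 6H, with WRKY44 and WRKY70.

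From testa rupture to radicle protrusion, 8 members rose and 0 fell, while 2.34% of all genes rose and 0.766% fell. Without the minimum change of 1, limma counted 17 members as higher and 2 as lower at an adjusted p under 0.05. The share of all genes under that looser rule was not computed for any step, so such counts have no background beside them. The 8 that rose were 14.5% of the family. WRKY72 (AT5G15130), a class IIb factor of basal defence, rose the most, with 5.65, 5.45 and 6.28 at RP and 3.69, 3.84 and 3.69 at TR. Its change was 2.06 ± 0.27 (limma adjusted p = 2.2e-05), and all RP arrays lay above all TR arrays. WRKY36 rose a second time, with 7.59, 7.74 and 8.01 at RP and 6.11, 6.18 and 6.39 at TR, a change of 1.55 ± 0.17 (limma adjusted p = 1.6e-06).

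WRKY75 (AT5G13080), which acts in the response to phosphate starvation and limits root hair growth, had 5.31, 4.86 and 5.31 at RP and 4.08, 4.09 and 4.22 at TR. Its change was 1.03 ± 0.17 (limma adjusted p = 0.00026), with no overlap, and it went under the minimum change without RP replicate 1 or RP replicate 3 and after a further quantile normalization, at 0.93 at the lowest. WRKY45, its paralog, rose by 1.29 ± 0.15. The others were WRKY9 (1.28 ± 0.24), WRKY35 (1.17 ± 0.16), WRKY65 (1.09 ± 0.14) and WRKY30 (1.05 ± 0.21). At TR WRKY9, WRKY35 and WRKY30 were near the floor, with means of 2.46, 3.41 and 3.23. WRKY30 lost its call without RP replicate 3, with array weights and after a further quantile normalization, at 0.76 at the lowest.

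From radicle protrusion to the first root hairs the family changed least. Only WRKY25 and WRKY14 rose and 0 members fell, where 3.65% of all genes rose and 1.74% fell, so the share of members that rose, 3.64%, was that of the background. WRKY25 (AT2G30250), a class I factor of heat and salt tolerance, had 6.20, 6.32 and 6.26 at RH and 5.02, 4.80 and 5.08 at RP, a change of 1.29 ± 0.14 (limma adjusted p = 1.1e-06). WRKY14 (AT1G30650), of class IIe, had 6.03, 5.71 and 5.92 at RH and 4.60, 4.58 and 4.69 at RP, a change of 1.26 ± 0.14 (limma adjusted p = 7.1e-07). Neither gene had overlapping groups. Without the minimum change, 10 members were higher and 2 lower, with no share of all genes computed.

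From root hairs to green cotyledons, 6 members rose (10.9%) and 0 fell, with 2.6% of all genes higher and 0.972% lower. Without the minimum change, 21 were higher and 4 lower, with no share of all genes computed. Of the 6, WRKY30, WRKY38 and WRKY46 belong to class III, which holds 8 of the 55 loci followed here. WRKY48 (AT5G49520), a class IIc repressor of basal defence, had 7.09, 6.82 and 6.63 at GC and 5.37, 5.30 and 4.76 at RH, a change of 1.70 ± 0.27 (limma adjusted p = 0.00014). WRKY30 (AT5G24110), a partner of WRKY53, WRKY54 and WRKY70 in leaf senescence, had 5.76, 5.36 and 5.80 at GC and 4.08, 3.86 and 4.06 at RH, a change of 1.64 ± 0.21 (limma adjusted p = 1.7e-05). WRKY38 (AT5G22570), a repressor of basal defence, had 4.32, 4.50 and 5.52 at GC and 3.64, 3.16 and 3.11 at RH, a change of 1.48 ± 0.23. At RH the mean of WRKY38, 3.30, was near the floor. In all 3 of these genes the lowest GC array was above the highest RH array.

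The other rises at GC were close to the minimum change. WRKY46 rose by 1.18 ± 0.31 and lost its call without GC replicate 1 or RH replicate 3, at 0.92 at the lowest. WRKY40 rose by 1.07 ± 0.18 and did so without GC replicate 1, at 0.89. WRKY15 rose by 1.02 ± 0.16 and did so without RH replicate 3, without GC replicate 3 and on median-centred arrays, at 0.97. WRKY53 was not counted, with 7.32, 5.88 and 6.00 at GC and 5.88, 5.56 and 5.55 at RH. GC replicate 1 stood above the other 2 arrays of its stage for WRKY53, and this SD of 0.80 was the largest of any member at any stage.

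From green to opened cotyledons, 4 members rose (7.27%) and 1 fell (1.82%), where 5.41% of all genes rose and 3.02% fell. Without the minimum change, 14 were higher and 7 lower, with no share of all genes computed. WRKY70 (AT3G56400), a class III factor between the salicylic acid and jasmonate pathways, rose the most, with 6.32, 7.0 and 6.60 at OC and 5.73, 4.56 and 4.47 at GC. Its change was 1.72 ± 0.26 (limma adjusted p = 3.7e-05), and GC replicate 1 was again the highest of its stage, though below all OC arrays. WRKY43 (AT2G46130), a class IIc factor of seed lipid and germination control, had 4.36, 4.01 and 4.29 at OC and 3.08, 2.91 and 3.03 at GC, a change of 1.22 ± 0.14 (limma adjusted p = 7.2e-07). It had been near the floor at all earlier stages, and it was under the minimum change, at 0.93, after a further quantile normalization.

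WRKY57 rose by 1.12 ± 0.13 and WRKY35 by 1.10 ± 0.16, and WRKY35 lost its call without GC replicate 1 or OC replicate 2 and with array weights, at 0.94 at the lowest. WRKY38 fell, with 3.52, 3.83 and 3.70 at OC and 4.32, 4.50 and 5.52 at GC, a change of -1.09 ± 0.23 (limma adjusted p = 0.00083). The groups did not overlap, but GC replicate 3 was well above the other 2 arrays, and without it the change was -0.73 and 0 members counted as lower.

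Over the whole span, from dry seed to opened cotyledons, 29 of 55 members were higher and 8 lower, with 18 counted as neither. Those are 52.7% and 14.5% of the family, against 23.1% and 21.6% of all genes. Among the 22934 genes that were above the floor on at least 3 arrays, which held 51 of the members, 28% were higher and 26% lower. The median change was 1.19, against -0.20 for all genes. After a further quantile normalization 25 members were higher and 10 lower, against 21.3% and 24.9% of all genes, and on median-centred arrays 22 and 10, against 17.1% and 37.5%. The medians of the family were then 0.88 and 0.66, and those of all genes -0.17 and -0.74. DS replicate 2 was the highest of the 3 dry seed arrays for 49.5% of all genes that were higher at OC, and for 12 of the 29 WRKY genes. The count of 29 was the same without that array.

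The largest rise over the span was that of WRKY36, with 8.76, 8.81 and 8.40 at OC and 3.64, 3.96 and 4.12 at DS, a change of 4.75 ± 0.17 (limma adjusted p = 1.1e-15). After WRKY40, described above, came WRKY29 (4.2 ± 0.17), WRKY65 (3.96 ± 0.14), WRKY53 (3.68 ± 0.29), WRKY35 (3.58 ± 0.16), WRKY72 (3.32 ± 0.27), WRKY14 (3.31 ± 0.14), WRKY7 (3.11 ± 0.18) and WRKY44 (3.03 ± 0.16). WRKY53 had 7.01, 6.88 and 6.78 at OC and 3.07, 3.32 and 3.22 at DS. WRKY70 had 3.45, 4.22 and 3.87 at DS and changed by 2.80 ± 0.26. In dry seed WRKY14, WRKY35, WRKY44, WRKY53 and WRKY72 were near the floor, with means from 2.85 to 3.46, and the other 6 of these genes had means from 3.53 to 3.90. No OC array overlapped a DS array for any gene counted as changed, which the rule for counting, applied to the same arrays, makes likely.

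Between 1 and 3 on the log2 scale rose WRKY45 (2.97), WRKY57 (2.89), WRKY47 (2.72), WRKY25 (2.70), WRKY33 (2.49), WRKY46 (2.16), WRKY9 (2.13), WRKY30 (1.74), WRKY27 (1.72), WRKY17 (1.71), WRKY6 (1.64), WRKY31 (1.51), WRKY22 (1.5), WRKY11 (1.43), WRKY2 (1.23), WRKY51 (1.20), WRKY75 (1.19) and WRKY43 (1.10). In dry seed WRKY46, WRKY9, WRKY30 and WRKY43 were near the floor, with means of 2.68, 2.79, 3.15 and 3.12. The 2 probe sets of WRKY43 changed by 0.79 and 1.41 over the span, so the first was under the minimum change. Of the genes that rose by 1 to 3, 7 depended on the scaling: WRKY2, WRKY43, WRKY51 and WRKY75 were under the minimum change after a further quantile normalization and on median-centred arrays, and WRKY11, WRKY22 and WRKY31 on median-centred arrays.

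Lower at OC were, after WRKY32, WRKY3 with 6.71, 6.27 and 6.71 at OC and 8.75, 8.67 and 8.78 at DS, a change of -2.17 ± 0.14 (limma adjusted p = 9.4e-12). They were joined by WRKY4 (-1.98 ± 0.13), WRKY8 (-1.80 ± 0.20), WRKY15 (-1.27 ± 0.16), WRKY23 (-1.20 ± 0.13), WRKY1 (-1.13 ± 0.11) and WRKY34 (-1.12 ± 0.18). WRKY34, a factor known from pollen, was near the floor at OC with a mean of 2.88, and lost its call without DS replicate 1, at -0.93. WRKY1 reached the minimum change in no single step, with -0.35 at 6H and -0.54 at TR (limma adjusted p = 0.0069 and 0.00022).

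**Figure D4:**
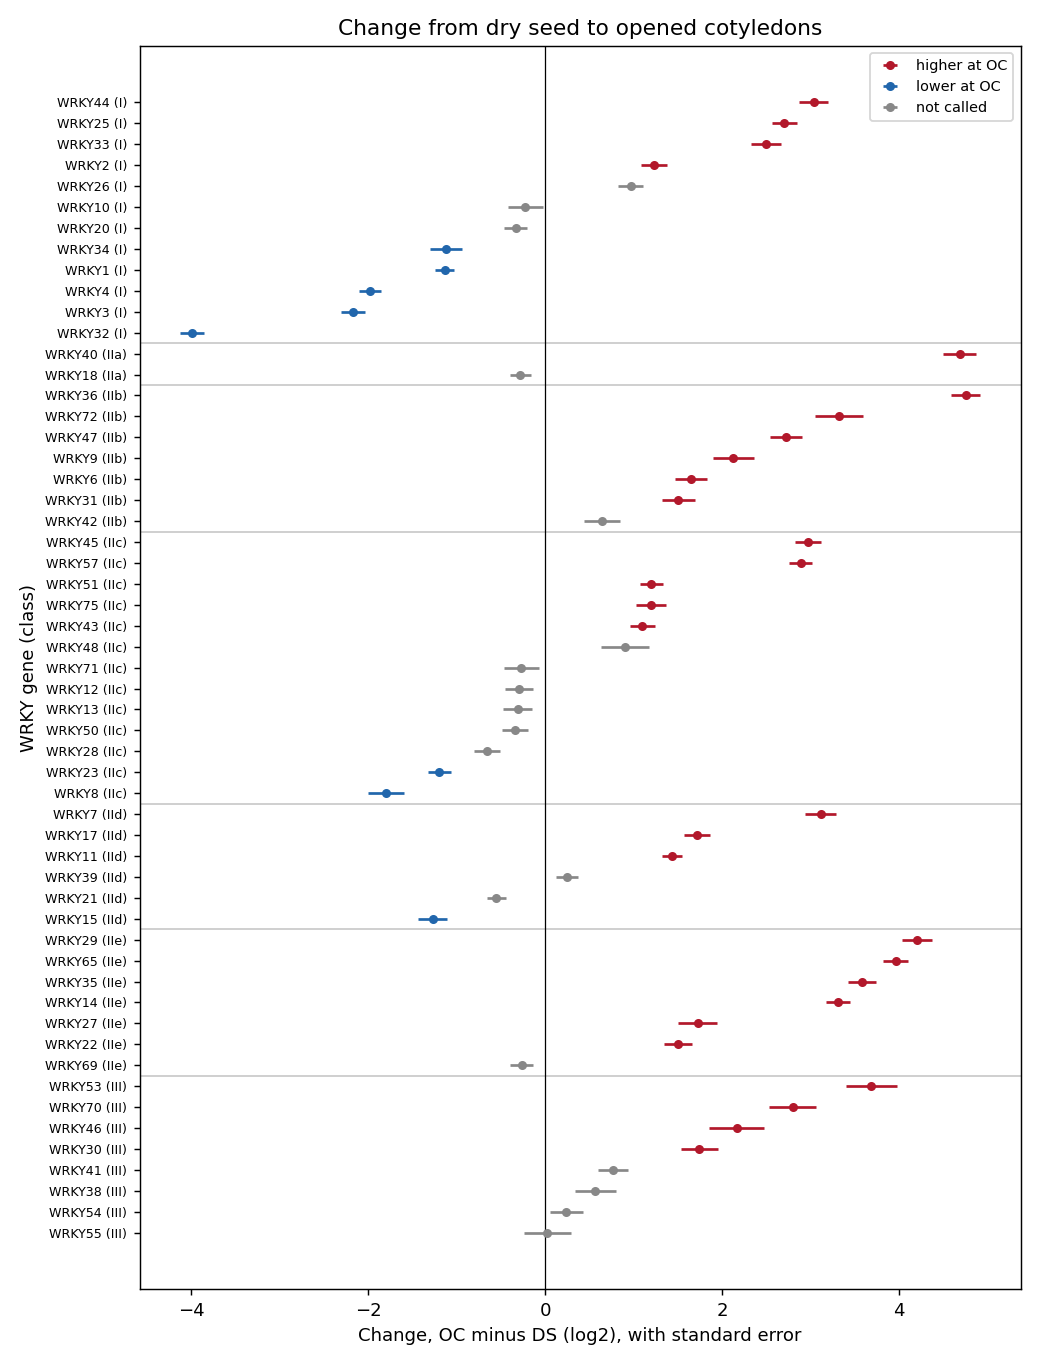
Points are the change of each WRKY gene at OC relative to DS (log2) with its standard error, grouped by class and coloured by call. Class IIe holds 6 genes higher and none lower, while 5 of the 8 genes lower at OC are in class I.

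Between the classes the calls over the span were uneven, and no test was made of that difference. Of all genes 23.1% were higher and 21.6% lower. In class I 4 of 12 were higher and 5 lower, and the median change was -0.28. Class IIe had 6 of 7 higher and 0 lower, with a median of 3.31, and class IIb 6 of 7 higher and 0 lower, with a median of 2.13. In class III 4 of 8 were higher and 0 lower (median 1.25), in class IId 3 of 6 and 1 (median 0.84), in class IIc 5 of 13 and 2 (median -0.27), and in class IIa 1 of 2 and 0. At testa rupture 5 of 7 class IIe and 4 of 7 class IIb genes rose, against 1 of 8 in class III and 9.8% of all genes. Class III thus held 1 of the 21 rises at testa rupture and 3 of the 6 at green cotyledons, where 2.6% of all genes rose. Every class III gene was near the floor at 6H, with means from 2.49 to 3.24. Changes are compressed there, so the timing of class III cannot be told apart from its low signal. Low signal at 6H was not particular to class III. WRKY9, WRKY31, WRKY36, WRKY42 and WRKY72 of class IIb and WRKY14, WRKY29 and WRKY35 of class IIe were near the floor there too. Among these, WRKY29, WRKY35, WRKY36 and WRKY72 were counted as higher at TR.

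Close paralogs were set side by side, as a description over 7 stage means that all come from the same arrays. A shared call includes no call in both genes, and most members had no call at any given step, so many shared calls are of that kind. WRKY3 and WRKY4 had the same call in all 7 comparisons and stage means that correlated at r = 0.94. WRKY22 and WRKY29 also had the same calls throughout (r = 0.90), and WRKY11 and WRKY17 in 6 of 7 (r = 0.96), as had WRKY8 and WRKY28 (r = 0.90) and WRKY45 and WRKY75 (r = 0.86). WRKY14 and WRKY35 rose along the same course (r = 0.99), although they shared the call in only 3 of 7 comparisons. The profiles of WRKY65 and WRKY69 were unlike (r = 0.11): WRKY69 fell on imbibition, and WRKY65 rose at testa rupture. WRKY18 and WRKY40 (r = 0.52) shared 4 of 7 calls, and so did WRKY6 and WRKY42 (r = 0.58). WRKY25 and WRKY26 (r = 0.58) shared 3 of 7, and WRKY54 and WRKY70 (r = 0.83) 5 of 7. WRKY50 and WRKY51 had the only negative correlation of the 13 pairs (r = -0.13), although they shared 6 of 7 calls. WRKY12 and WRKY13 (r = 0.55) were counted in no comparison. WRKY12 and WRKY54 were near the floor at every stage, so r for their pairs cannot be read as a shared course. Probe sets of paralogs can share signal, which was not tested, since probe sequences were not used here.

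At the other end, 16 members were counted in no step, some of them with an adjusted p under 0.05 but a change under 1, such as WRKY51 at GC (0.99), WRKY50 at TR (-0.89), WRKY31 at OC against GC (0.76) and WRKY21 at TR (-0.64). WRKY12, WRKY54 and WRKY71 were near the floor at every stage: WRKY12 is known from stem pith, WRKY71 from shoot branching and WRKY54 as the paralog of WRKY70 in senescence. WRKY10, known as MINI3 and a factor of endosperm growth and seed size, was near the floor at 6 of 7 stages, OC among them, so no change is given for it. At OC against DS, WRKY41, which acts in seed dormancy, changed by 0.76 ± 0.17, WRKY42 by 0.65 ± 0.20, WRKY20 by -0.33 ± 0.13, WRKY21 by -0.55 ± 0.11 and WRKY39 by 0.24 ± 0.12. WRKY13, WRKY50 and WRKY55 lay between -0.34 and 0.03 in the same comparison, and their groups overlapped. Of the members that were counted in some step, WRKY18, WRKY26, WRKY28, WRKY38, WRKY48 and WRKY69 were not counted over the span, with changes of -0.28, 0.97, -0.66, 0.57, 0.90 and -0.27. In all, 29 members were near the floor at no stage.

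Genes that work with WRKY factors were given in 5 lists of 39 genes in all. Of these, 4 rose and 4 fell from DS to 6H (25.3% of all genes changed in either direction), 2 rose and 2 fell at TR (17.1%), 1 and 1 at RP (3.11%), 3 and 1 at RH (5.39%), 4 and 1 at GC (3.57%) and 5 and 0 at OC (8.43%). Over the span 12 rose and 3 fell, against 44.7% of all genes. The 4 changes at RH were 2 after a further quantile normalization, with array weights, without RP replicate 2 or without RH replicate 1. The 5 at GC were 2 without GC replicate 1 or on median-centred arrays, and 3 without RH replicate 3 or with array weights.

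On imbibition 1 of 10 receptor and kinase genes fell and 0 rose, and of the 12 salicylic acid and defence genes 1 fell and 1 rose, where 10.7% of all genes fell and 14.6% rose. MPK3, a kinase that phosphorylates WRKY33, had 6.78, 6.97 and 7.08 at 6H and 8.83, 8.67 and 8.91 at DS, a change of -1.86 ± 0.16 (limma adjusted p = 3.5e-09). At GC it rose by 1.04 ± 0.16 against RH. The salicylic acid synthesis gene ICS1 had 4.97, 4.95 and 4.52 at 6H and 6.33, 6.31 and 6.28 at DS, a change of -1.49 ± 0.13 (limma adjusted p = 8.2e-09). FLS2, the flagellin receptor, was 1.57 ± 0.23 higher at OC than at DS, MKK1 was 1.92 ± 0.19 higher, and MEKK1 changed by -1.76 ± 0.15. The DS mean of FLS2, 3.04, was near the floor. The other 7 of the 10 receptor and kinase genes were not counted over the span, in which 44.7% of all genes changed.

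Over the span 4 of the 12 salicylic acid and defence genes rose and 0 fell, where 23.1% of all genes rose and 21.6% fell. EDS1 and PAD4, partners in salicylic acid-dependent immunity, were higher at OC than at DS by 3.57 ± 0.24 and 4.00 ± 0.19, and CBP60G, an activator of ICS1, by 2.0 ± 0.13. EDS1 and PAD4 were near the floor at DS, with means of 3.32 and 3.34. PAD3, the last enzyme of camalexin synthesis and a known target of WRKY33, had 5.01, 4.77 and 5.91 at OC and 2.85, 2.77 and 2.90 at GC. It changed by 2.39 ± 0.21 (limma adjusted p = 2.6e-08), and it was near the floor at every stage before OC. The relation of PAD3 to WRKY33 was not tested. The other 8 of the 12 genes in that list were not counted over the span, among them PR2, PR5 and NPR1. PR1, a salicylic acid marker, had 5.02, 4.30 and 3.62 at 6H, where the 3 arrays were far apart, and 2.84, 2.77 and 3.06 at DS, near the floor. It rose by 1.42 ± 0.26 at 6H (limma adjusted p = 7.9e-05) and changed by -1.49 ± 0.26 at TR against 6H.

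Of 5 genes reported as WRKY targets, 2 rose and 2 fell over the span, where 23.1% of all genes rose and 21.6% fell. ABI5, an abscisic acid factor that WRKY40 is known to repress, had 5.60, 5.0 and 5.68 at OC and 10.52, 10.55 and 10.65 at DS, a change of -5.14 ± 0.19 (limma adjusted p = 2.5e-15). ABI4 had 9.61, 9.64 and 9.80 at 6H and 6.61, 6.51 and 6.32 at DS, and fell later to 3.65, 3.75 and 3.77 at OC. PHT1;1, the phosphate transporter gene activated by WRKY45 and WRKY75, was 5.67 ± 0.24 higher at OC than at DS, with gains of 2.12 ± 0.24 at RP and 2.32 ± 0.24 at RH. PHO1, the phosphate exporter gene that WRKY6 is known to repress, had 8.12, 8.10 and 7.74 at OC and 3.37, 3.61 and 3.28 at DS, a change of 4.56 ± 0.22 (limma adjusted p = 1.7e-13). The DS mean of PHO1, 3.42, was near the floor. The relation of these genes to the WRKY factors was not tested.

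Over the span 1 of 5 genes of VQ proteins, which bind WRKY domains, and 3 of 7 regulators around TTG2 rose, and 0 fell. Among all genes 23.1% rose and 21.6% fell. Of the VQ genes JAV1 was 2.92 ± 0.15 higher at OC than at DS, and SIB1 and SIB2, partners of WRKY33, rose by 1.12 ± 0.19 and 1.03 ± 0.21 at OC against GC. JAV1 was near the floor at DS, with a mean of 3.03, and SIB1 at GC, with a mean of 2.73. At 6H, SIB2 fell by 1.33 ± 0.21 against DS. In the other list the 3 higher over the span were TTG1, EGL3 and TT8. Their means were 5.97, 3.51 and 3.75 at DS and 6.98, 4.57 and 5.39 at OC, and the change of TT8 was 1.64 ± 0.20. EGL3 rose by 2.5 ± 0.15 at 6H and had a mean of 6.04 at TR, above its mean at OC. GL3 rose by 1.72 ± 0.21 at TR to a mean of 5.05, and was back at 3.56 at OC, against 3.40 at DS. GL3 was near the floor at DS and at 6H, where its mean was 3.33.

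**Figure D5:**
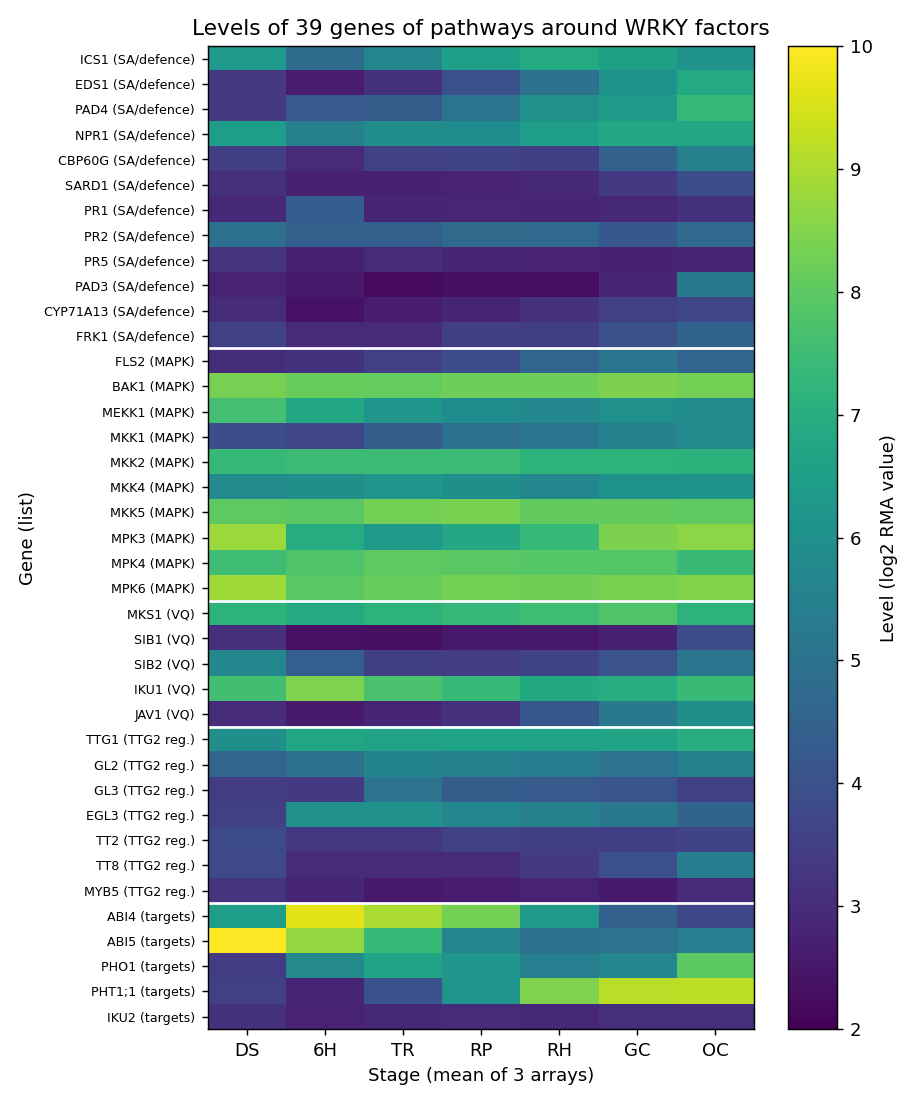
Colour shows the stage mean (log2 RMA value, scale from 2 to 10, n = 3 arrays) of 39 genes of pathways around WRKY factors, grouped by list. ABI5 dims from DS on, ABI4 peaks at 6H, and PHT1;1, PAD4 and EDS1 brighten towards OC.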

How the data were processed

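The deposited values are log2 signals per probe set for 21 arrays, made by the authors with RMA, per the submitters' processing notes. The RMA version, the array platform and the build behind its probe sets are not given in the sources used here. Of 35986 probe sets, 215 with identical values in several loci were left out, the rest were averaged per locus, and 27789 genes remained. Of the WRKY genes 14 had 2 probe sets, which for WRKY15 and WRKY18 held identical values, and the others correlated at 0.846 or more. All 55 loci were found in the reference table of assembly TAIR10.1.

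Stage means were fitted to all arrays at once in limma 3.58.1, run in R 4.3.3, which left 14 degrees of freedom for the spread. Comparisons were 2-sided, later minus earlier stage, for 6 consecutive steps and from DS to OC, and comparisons that share a stage share its arrays. The number of arrays limits the precision, and the labels name no batch. The procedure was tested on simulated data.

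Values per array are given for the members with the 2 largest rises and falls in each comparison, the 2 with the highest mean value (WRKY18 and WRKY11) and WRKY2, WRKY6, WRKY18, WRKY23, WRKY33, WRKY40, WRKY44, WRKY53, WRKY70 and WRKY75. Members, lists and classes were chosen with earlier results of these data known. Alternatives were a further quantile normalization, median-centred arrays, the brightest probe set per locus, a filter on dim genes, array weights, a trended and robust prior, the 6 arrays of a comparison alone, no minimum change, the replicate number as a block, other floors, and each array left out in turn. Leaving out DS replicate 2 and OC replicate 2 together was chosen after seeing the data.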

Additional observations from a re-analysis of the deposited data

How the results depend on the processing

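Of the 96 member changes counted in the 7 comparisons, 75 kept their call under every alternative run, 21 lost it under at least 1, and 0 changed sign. Without the minimum change, members higher and lower were 5 and 34 at 6H, 17 and 2 at RP, 10 and 2 at RH, 21 and 4 at GC and 14 and 7 at OC against GC, with 9 lower at TR and 13 lower at OC against DS. Pathway genes changed were then 29 at 6H, 16 at TR, 8 at RP, 11 at RH, 18 at OC against GC and 24 over the span. The shares of all genes without the minimum change were not computed, so these counts of members and pathway genes have no background. From DS to 6H the median change of all genes was itself -0.23. After a further quantile normalization 1 member was lower at RH and 2 were highest at 6H, and 2 pathway genes changed at RH. On median-centred arrays 2 members were highest at 6H and 2 at RP, and 15 pathway genes changed at 6H and 2 at GC. With array weights 2 pathway genes changed at RH and 3 at GC. With single arrays left out, members lower at RH ranged from 0 to 1 (1 without RP replicate 1, RP replicate 2 or RH replicate 1) and members lower at OC against GC from 0 to 1 (0 without GC replicate 3). Members highest at 6H then ranged from 1 to 2 and those highest at RH from 1 to 3 (both moved without RH replicate 3), and those highest at RP from 0 to 2 (2 without OC replicate 2, 0 without OC replicate 3). Pathway genes changed ranged from 2 to 4 at RH (2 without RP replicate 2 or RH replicate 1) and from 2 to 5 at GC (2 without GC replicate 1, 3 without RH replicate 3). With the floor at the 40th percentile, 8 members were near it at every stage. The replicate numbers do not pair the samples: the correlation of deviations between arrays of the same number ran from -0.328 to 0.124, 9 of 21 arrays correlated best with their own number, and the replicate block changed none of the counts of members, with 14 lower at 6H, 21 higher at TR and 29 higher at OC. Signal near the floor limits how large a rise or fall can be read.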

Other observations

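The median SD of a member within a stage was 0.17, and 10 members had an SD over 0.5 at some stage. At GC the SD was 0.80 for WRKY53, 0.70 for WRKY70 and 0.64 for WRKY38, with replicate 1 highest for WRKY53 and WRKY70 and replicate 3 for WRKY38. At OC it was 0.71 for WRKY9, 0.66 for WRKY46 and 0.52 for WRKY27, and at RP 0.63 for WRKY48 and 0.60 for WRKY53, with replicate 3 highest for both. WRKY55 and WRKY71 had 0.72 and 0.55 at DS.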
